A study of Mus musculus with 54 samples.

Results

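The step between 24 and 72 h of BMP4 treatment was examined in cXEN cells, mouse extraembryonic endoderm stem cells kept as a line. It was chosen by sample title and compares 2 RNA-seq libraries at 72 h with 2 at 24 h, which is 4 of the 40 RNA-seq libraries and of 54 samples in the series. Both groups carry the genotype cXEN;Gata6-FKBP, in which the transcription factor Gata6 bears a degron tag, and the sample titles call the cells XEN. None of the 4 received dTAGV1, the compound that triggers degradation of the tagged protein. Gata6 protein was not measured in the files used here. The cells spent 24 h in N2B27, a defined medium, with 1% FBS on gelatin, and then received 25 ng/ml BMP4 in N2B27 lacking serum for 24 or 72 h. A media control of the same genotype at 0 h, without BMP4 (2 libraries), is given beside them. No library without BMP4 was taken at 24 or 72 h in the samples used here, so hours with BMP4 and hours without serum cannot be told apart. As a second step over the same hours, 4 libraries of the line cXEN;Sox17-FKBP were used, at 24 and 72 h of 500 nM dTAGV1, which removes Sox17, in serum-containing medium (2 libraries each). Whether replicates came from separate cultures is not in the labels. The p-values therefore reflect the spread between replicate libraries, pooled over the 20 groups of the series, which may be technical.

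XEN cells derive from the primitive endoderm, the layer next to the epiblast in the blastocyst. In the embryo this layer gives rise to visceral endoderm, an absorptive and secretory epithelium that makes serum-type carrier proteins for the embryo, and to parietal endoderm, whose migratory, mesenchyme-like cells lay down a thick basement membrane. BMP4 is a secreted ligand that binds type I and type II serine/threonine kinase receptors. These phosphorylate SMAD1 and SMAD5, which enter the nucleus with SMAD4 and switch on direct targets such as the Id genes and the inhibitory SMADs. BMP signalling is known to move XEN cells toward visceral endoderm.

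The 24 h group stood apart in its replicate spread, and the 72 h group in its reads outside genes. Gene reads numbered 16816550 and 19741917 at 0 h, 21780615 and 20419062 at 24 h, and 17368587 and 18951336 at 72 h, against 16221873 to 42457384 over the series. The spread between both 24 h libraries was the widest of the 20 groups, with a chi-square per degree of freedom of 57.4 (1 is the value for counting error alone), against 1.59 at 72 h and 1.48 at 0 h. Of 11339 genes compared, 313 differed by at least 1 log2 unit between the 24 h libraries and 2 between the 72 h libraries. Distances were taken over 9317 genes called between 24 and 72 h in the fit below. At 24 h, replicate 2 lay farther than replicate 1 from the 0 h level (median distance 0.49 against 0.22 log2 units) and from the 72 h level (1.05 against 0.78). These genes were selected by the step itself, so the distances to 72 h are large in part by selection. Reads outside annotated genes numbered 5.32 and 4.51 per 100 gene reads at 24 h and 10.4 and 10.3 at 72 h, the highest of the series, against 5.64 and 5.68 at 0 h. Mitochondrially encoded transcripts took 0.56 and 0.49% of gene reads at 24 h, the lowest of the series, and 1.69 and 1.66% at 72 h, the highest.

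Read counts were fitted with edgeR's quasi-likelihood test over all 40 libraries, and a gene was called at a Benjamini-Hochberg adjusted p under 0.05. Of 14625 genes tested, 10275 (70.3%) were called, 5156 higher (35.3%) and 5119 lower (35.0%) at 72 h. About 1 gene in 3 was thus called in each direction. The scaling of libraries (TMM) takes most genes as unchanged, and it left the median change over all genes at 0.0. The even split of directions therefore depends on the scaling, and a shift shared by most genes cannot be seen. The median absolute change of called genes was 1.04 log2 units, and the change reached at least 1 log2 unit in 3177 higher (21.7%) and 2182 lower genes (14.9%). The groups did not overlap in 82.2% of the genes tested. Without adjustment, 10532 genes had a p under 0.05. The test pools the spread of all groups, so the wide spread of the 24 h pair enters only in part. With only the libraries compared in the fit, 8475 genes were called. The adjusted p of Tagln was then 0.0019, against 2.0e-20 over all 40 libraries. Of the 10275 called genes, 8419 (57.6% of those tested) kept call and direction when each of the 4 libraries was left out in turn, 4195 higher (28.7%) and 4224 lower (28.9%). A further 3 fits were added after the data were seen: one with reads outside genes as a covariate, one with the trend over gene span removed, and one with the axis that separates a distant pair of replicates (Sox17 degradation at 24 h) removed. Of the 10275 calls they kept 1360 (13.2%), 8414 (81.9%) and 6677 (65.0%), in that order. Reads outside genes themselves separate 24 from 72 h, so the covariate shares the step by construction. A call lost with the covariate therefore does not decide whether the gene changed. In all 4 leave-one-out fits and all 3 added fits, 1148 genes kept call and direction (7.85%), 446 higher (3.05%) and 702 lower (4.8%). These are called robust hereafter, and robust members of a list are to be read against these shares of 3.05 and 4.8%. Most calls were lost with the covariate, so a gene that is not robust may still have changed. In a bulk library, more cells of a type and more RNA per cell cannot be told apart.

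**Figure D1:**
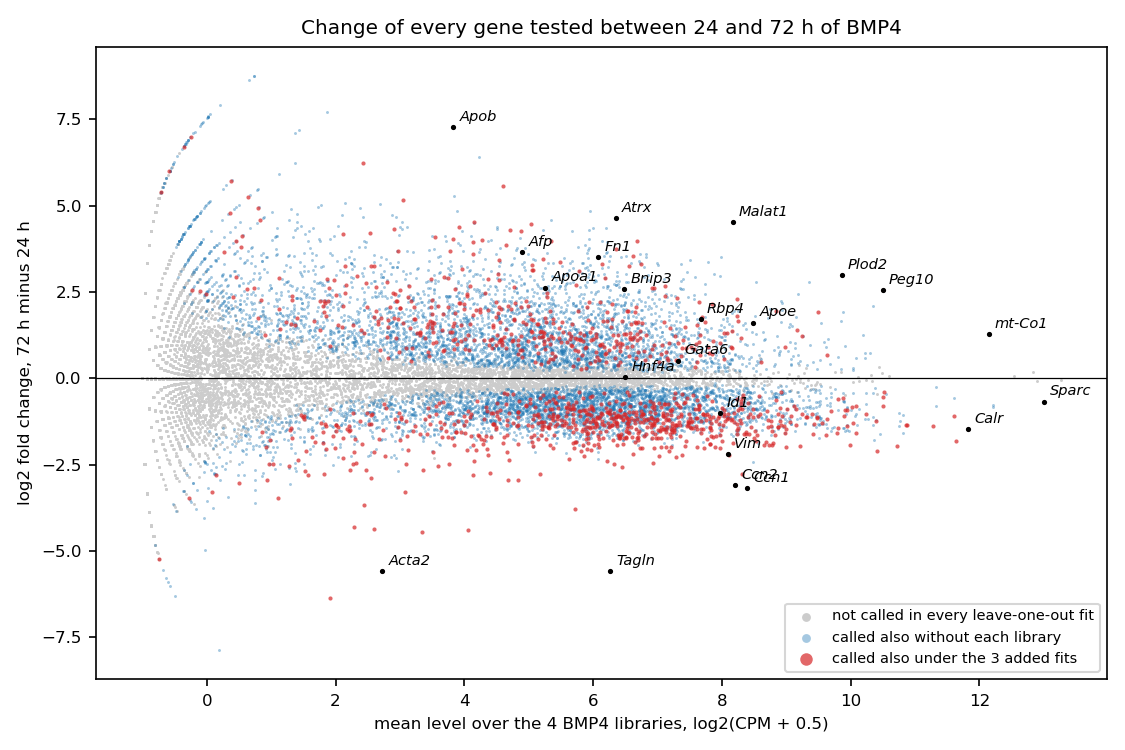
Each point is 1 gene tested, with its mean level over the 4 BMP4 libraries on the x axis, as log2(CPM + 0.5), and its log2 fold change from 24 to 72 h on the y axis. Red points (1148 genes) kept call and direction in all leave-one-out and added fits, blue points kept them in the leave-one-out fits alone, and grey points did not. Tagln and Acta2 lie near -5.6 and Apob near 7.3.

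Genes for secreted carrier proteins, the hallmark product of visceral endoderm, were higher at 72 h. Of 15 tested members of this list, 11 rose and 0 fell, against 35.3 and 35.0% over all genes. The median change was 1.82 log2 units, against 0 over all genes. Apob, the structural protein of large lipoproteins, was at 0.278 and 0.0524 CPM (read counts scaled to library size with TMM factors) at 24 h, from 6 and 1 reads, and at 28.9 and 25.4 CPM at 72 h. It was listed at 0 in both 0 h libraries. The groups were far apart, and the log2 fold change was 7.26 ± 0.45 (SE, adjusted p = 5.5e-11). With the covariate the call of Apob was lost (6.02, adjusted p = 0.42), and without 1 or the other 24 h library the change was 8.88 or 6.60. Afp, the fetal serum protein alpha-fetoprotein, was at 3.98 and 4.61 CPM at 24 h and 56.6 and 52.1 CPM at 72 h. Both 72 h libraries lay above both 24 h libraries, and the change was 3.66 ± 0.14 (adjusted p = 1.8e-17). Apoa1, the main protein of high-density lipoprotein, went from 9.77 and 11.3 CPM to 67.2 and 62.7 CPM (2.62 ± 0.13, adjusted p = 1.6e-15).

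Rbp4, the carrier of retinol in serum, stood at 88.0 and 103 CPM at 24 h and at 318 and 305 CPM at 72 h (1.71 ± 0.09, adjusted p = 6.4e-15). Apoe, a ligand for lipoprotein receptors, stood at 160 and 193 CPM and then at 553 and 527 CPM (1.61 ± 0.11, adjusted p = 6.5e-13). In both genes the groups were clearly separate. Afp, Apoa1, Rbp4 and Apoe are the 4 robust members of the list. Apoa2 (1.60), Apoa4 (1.82), Fgb (1.96), the fibrinogen beta chain, and Mttp (0.43), which loads lipid onto apolipoprotein B, rose in every leave-one-out fit. Fgb was called lower with the axis removed (-1.15, adjusted p = 0.0073), and Mttp with the span trend removed (-0.15, adjusted p = 0.049). Ttr, the thyroid hormone carrier transthyretin, was at 139 and 181 CPM at 24 h and 139 and 144 CPM at 72 h, with overlapping groups (-0.18 ± 0.10, adjusted p = 0.14, but 0.53 and adjusted p = 1.2e-09 with the axis removed, and -0.36 and adjusted p = 0.0033 without 24 h replicate 1), after 52.98 and 51.62 CPM at 0 h. Apom, a sphingosine phosphate carrier, was at 11.2 and 15.6 CPM and then 13.1 and 12.6 CPM, also with overlap (-0.06 ± 0.21, adjusted p = 0.83), and was called higher in each of the added fits (2.85, 0.55 and 0.69). The summed level of the 23 listed genes was 321 to 331 CPM at 0 h, 669 to 752 CPM at 24 h and 1499 to 1537 CPM at 72 h.

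**Figure D2:**
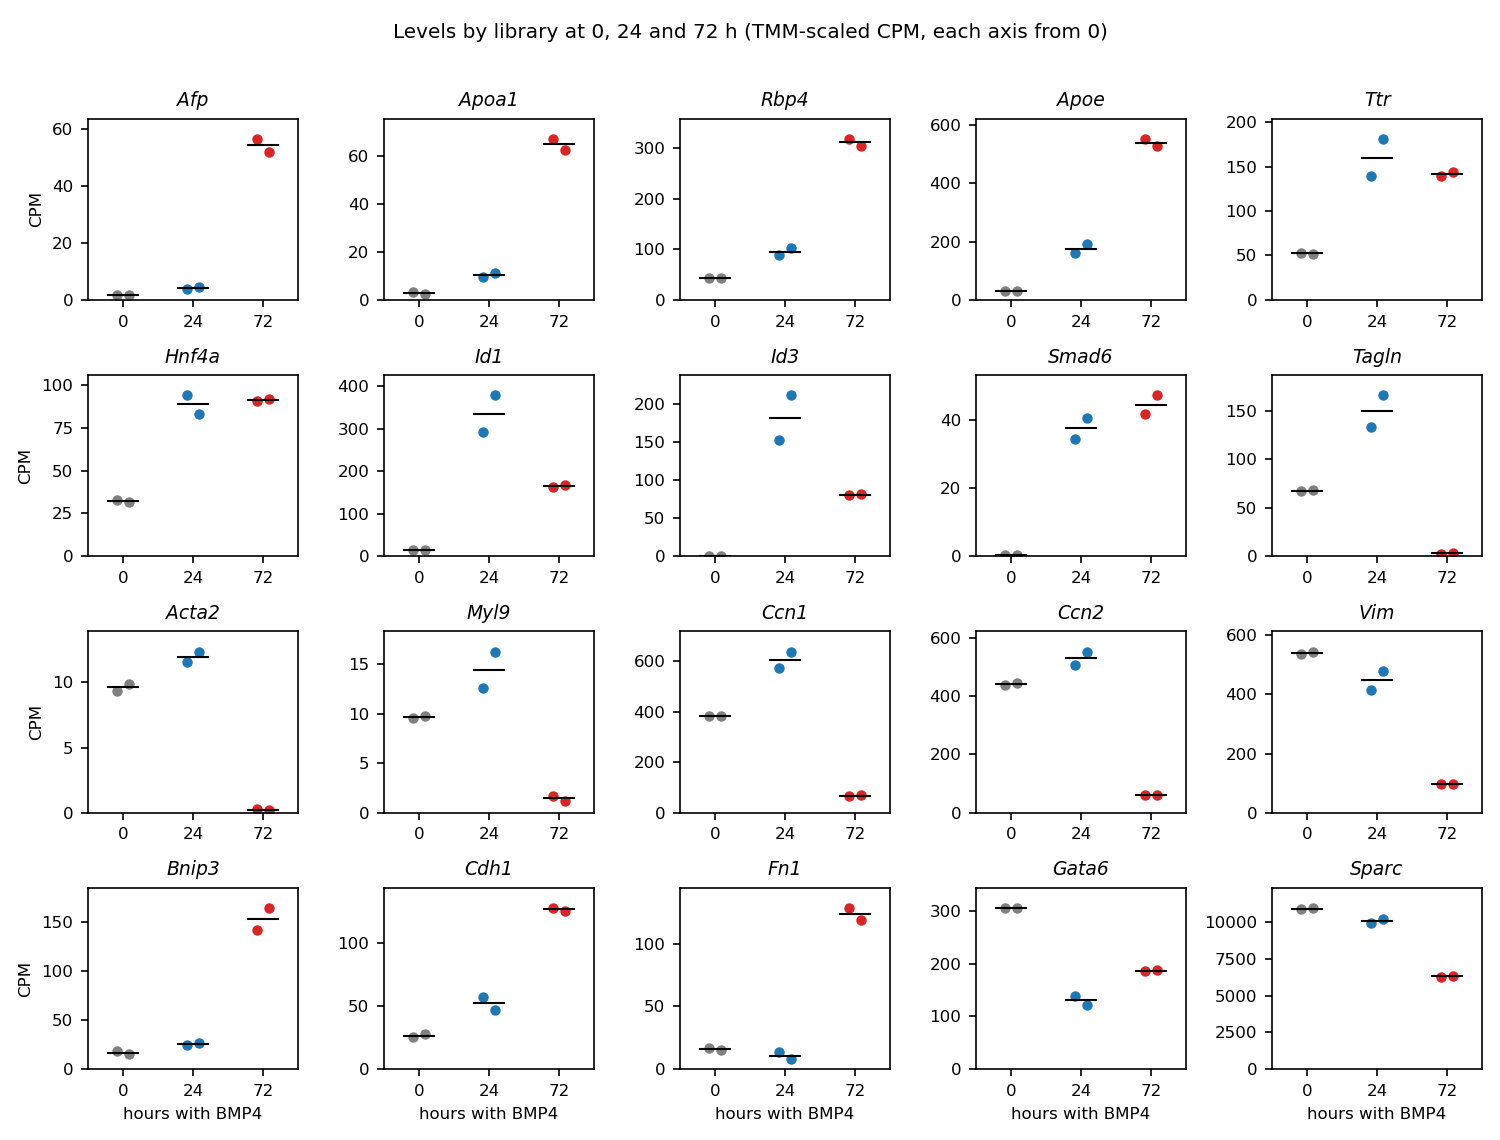
Each panel shows 1 gene, with hours of BMP4 on the x axis and TMM-scaled CPM on a linear y axis from 0. Dots are single libraries (2 per time) and black lines their means. Afp, Apoa1, Rbp4 and Apoe are highest at 72 h, in Ttr and Hnf4a the dots at 24 and 72 h overlap, and Tagln, Acta2, Myl9, Ccn1, Ccn2 and Vim are lowest at 72 h.

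Genes of nutrient uptake, the absorptive side of visceral endoderm, moved in both directions. Of 24 tested, 11 rose and 7 fell, against 35.3 and 35.0% over all genes. With the covariate 3 rose and 5 fell, and the robust members were 2 that rose and 3 that fell. Pdzk1, a scaffold of brush border transporters, was at 2.22 and 2.15 CPM at 24 h and 12.7 and 11.4 CPM at 72 h (2.46 ± 0.16, adjusted p = 3.4e-13). Enpep, an aminopeptidase of the brush border, was at 8.84 and 6.29 CPM and then at 22.1 and 22.5 CPM (1.55 ± 0.11, adjusted p = 2.6e-12), close to its 0 h level of 23.9 and 23.1 CPM. Both rises are robust, and the groups of neither gene overlapped. Cldn2, a channel-forming claudin of leaky epithelia, was at 0.555 and 0.524 CPM at 24 h and at 15.0 and 12.6 CPM at 72 h (4.66 ± 0.37, adjusted p = 3.5e-10). Its call was lost with the covariate (6.69, adjusted p = 0.12). Dpp4, a brush border dipeptidase, stood at 31.0 and 18.1 CPM and then at 112 and 109 CPM (2.16 ± 0.18, adjusted p = 3.2e-11). Its call too was lost with the covariate (1.04, adjusted p = 0.061).

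Stra6 and Lrpap1 were among the robust falls in uptake genes. Stra6, the cell surface receptor for retinol carried by Rbp4, went from 349 and 391 CPM to 142 and 148 CPM (-1.35 ± 0.08, adjusted p = 1.7e-13). Lrpap1, an endoplasmic reticulum chaperone of endocytic receptors, went from 1632 and 1630 CPM to 786 and 802 CPM (-1.04 ± 0.06, adjusted p = 2.4e-13). The 24 h libraries disagreed on the large endocytic receptor genes. Cubn (cubilin) was at 1527 and 649 CPM at 24 h and 1007 and 1015 CPM at 72 h, so that both 72 h values lay between the 24 h values (-0.11 ± 0.18, adjusted p = 0.63). It was called higher without 24 h replicate 1 (0.64) and lower without replicate 2 (-0.58) and in each of the added fits. Lrp2 (megalin) was at 261 and 104 CPM and then 121 and 130 CPM, and its change was -0.54 (adjusted p = 0.027) in the full fit but 0.27 (adjusted p = 0.1) without 24 h replicate 1. Of 25 lysosomal genes tested, 17 fell and 6 rose, against 35.0 and 35.3% over all genes, with a median of -0.41. The direction of these counts depended on the fit: with the covariate 4 rose and 1 fell (median -0.0073), and with the axis removed 8 rose and 12 fell (median -0.10). The robust members were Lgmn, the protease legumain, which fell by 1.15, and Ctsc and Hexa, which rose by 0.83 and 2.27. Lamp2, a lysosomal membrane protein, was at 67.4 and 50.1 CPM and then 186 and 173 CPM (1.61 ± 0.12, adjusted p = 1.0e-11).

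The endoderm transcription factors changed by less than the genes above. Gata6 itself was at 140 and 122 CPM at 24 h and at 186 and 188 CPM at 72 h, after 305 and 306 CPM at 0 h. The groups did not overlap, and the log2 fold change from 24 to 72 h was 0.51 ± 0.06 (adjusted p = 2.8e-08), with the call lost under the covariate (0.23, adjusted p = 0.33). Since Gata6 carries the tag in these cells, no check of the label follows from its level. Gata4 was at 1049 and 1104 CPM and then at 798 and 812 CPM (-0.42 ± 0.07, adjusted p = 3.6e-06), and the sign turned when the replicate axis was removed (0.28, adjusted p = 4.4e-06). Sox17 was at 327 and 384 CPM and then at 260 and 263 CPM (-0.44 ± 0.07, adjusted p = 6.5e-06), with no change left once the span trend was removed (0.00, adjusted p = 0.98). Sox7 was at 53.5 and 44.4 CPM and then at 55.7 and 60.6 CPM (0.25 ± 0.11, adjusted p = 0.044), a call lost without 24 h replicate 2 (0.13, adjusted p = 0.38) and without 72 h replicate 2 (0.18, adjusted p = 0.23).

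Foxa2 and Hnf4a did not pass the test over all libraries, but were called in other fits. Foxa2, a pioneer factor of endoderm, was at 124 and 141 CPM at 24 h and 124 and 124 CPM at 72 h (-0.09 ± 0.07, adjusted p = 0.23). It was called higher with the covariate (0.46, adjusted p = 0.02), with the span trend removed (0.45, adjusted p = 8.5e-09) and with the axis removed (0.18, adjusted p = 0.0016), and lower without 24 h replicate 1 (-0.19, adjusted p = 0.032). Hnf4a, the nuclear receptor that drives hepatic and visceral endoderm genes, was at 32.8 and 31.7 CPM at 0 h, 94.0 and 83.3 CPM at 24 h and 90.8 and 91.9 CPM at 72 h, where the 24 and 72 h groups overlap (0.04 ± 0.10, adjusted p = 0.72). Its calls went in opposite directions, lower with the span trend removed (-0.61, adjusted p = 1.8e-05) and higher with the axis removed (0.28, adjusted p = 0.0014). Among 16 tested regulators of visceral endoderm, 8 rose and 2 fell, against 35.3 and 35.0% over all genes. Nr2f2, an orphan nuclear receptor, is the robust one, with 13.8 and 12.5 CPM and then 29.1 and 29.1 CPM (1.14 ± 0.11, adjusted p = 4.3e-10). Rora, another nuclear receptor, rose from 1.53 and 0.577 CPM to 6.71 and 8.12 CPM (2.78 ± 0.35, adjusted p = 5.3e-08), but its sign turned with the covariate (-0.27, adjusted p = 0.87). Of 18 primitive endoderm and XEN genes, 7 rose and 6 fell, near the shares over all genes (35.3 and 35.0%), none of them robust. With the span trend removed 6 rose and 10 fell, and with the covariate 1 rose and 4 fell. Pdgfra, the PDGF receptor that marks primitive endoderm, was at 646 and 451 CPM and then at 1014 and 1025 CPM (0.89 ± 0.09, adjusted p = 1.5e-09).

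Direct BMP targets moved in both directions after 24 h. Of 20 response genes tested, 8 fell and 3 rose, against 35.0 and 35.3% over all genes, and with the covariate 3 fell and 3 rose. Id1, an inhibitor of basic helix-loop-helix factors, was at 14.26 and 13.98 CPM at 0 h, 292 and 379 CPM at 24 h and 164 and 168 CPM at 72 h. The 72 h libraries lay between the other groups, and the change from 24 h was -1.01 ± 0.12 (adjusted p = 1.2e-08). Id3 showed the same order, with 0.539 and 0.41 CPM, then 153 and 212 CPM, then 80.2 and 81.4 CPM (-1.17 ± 0.15, adjusted p = 7.3e-08). Neither call held with the covariate, which turned both signs (0.064, adjusted p = 0.92, and 0.55, adjusted p = 0.23). Id2 was at 54.9 and 55.4 CPM and then at 87.2 and 91.9 CPM (0.70 ± 0.12, adjusted p = 1.1e-05), and its call too was lost with the covariate (0.26, adjusted p = 0.68).

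The inhibitory SMADs, which block the receptors, differed from each other. Smad6 was at 0.479 and 0.307 CPM at 0 h, 34.5 and 40.4 CPM at 24 h and 41.6 and 47.2 CPM at 72 h, and the last step did not pass the test (0.25 ± 0.20, adjusted p = 0.28), with calls in opposite directions under the covariate (1.92, adjusted p = 0.049) and with the axis removed (-1.12, adjusted p = 2.8e-06). Smad7 was at 63.0 and 60.5 CPM and then 41.8 and 42.0 CPM (-0.56 ± 0.11, adjusted p = 3.8e-05). Bambi, a decoy receptor, was at 34.4 and 40.0 CPM and then 14.6 and 14.5 CPM (-1.35 ± 0.14, adjusted p = 1.8e-09), and the call was lost with the covariate (-0.53, adjusted p = 0.32). The robust response genes were Bmper, a secreted BMP modulator (59.4 and 54.2 CPM, then 23.1 and 21.9 CPM, -1.34 ± 0.08, adjusted p = 5.3e-14), Msx2, a homeobox factor (3.06 and 2.73 CPM, then 0.864 and 1.17 CPM), and Nog. Nog, the BMP antagonist noggin, was at 33.4 and 35.9 CPM and then 66.4 and 66.7 CPM, apart from 30.1 and 29.1 CPM at 0 h (0.94 ± 0.08, adjusted p = 8.4e-11).

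Receptors and SMADs of the pathway rose more often than they fell. Of 16 ligand, receptor and SMAD genes tested, 11 rose and 0 fell, with a median of 0.97, against 35.3 and 35.0% over all genes. With the covariate 1 rose and 0 fell, and with the span trend removed 7 rose and 2 fell. Bmpr2, the type II receptor, was at 32.1 and 14.3 CPM at 24 h and 160 and 164 CPM at 72 h, after 59.1 and 60.7 CPM at 0 h (2.79 ± 0.27, adjusted p = 4.0e-10, 3.50 without 24 h replicate 1). Bmpr1a, the main type I receptor, was at 36.5 and 21.2 CPM and then at 105 and 105 CPM (1.86 ± 0.19, adjusted p = 9.9e-10). In both genes the 24 h libraries differ from each other and lie below the 0 h level. With the covariate the changes were 0.32 (adjusted p = 0.59) and 0.20 (adjusted p = 0.72). Smad1, a signal transducer of the pathway, is the robust member (17.8 and 15.8 CPM, then 37.4 and 34.0 CPM, 1.09 ± 0.11, adjusted p = 1.0e-09). Bmp4 itself was at 0 to 0.0599 CPM in the 6 libraries.

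Of 24 epithelial genes tested, 9 rose and 6 fell, which is near or under the shares over all genes (35.3 and 35.0%), and 4 of the rises were robust. Cdh1, the adherens junction protein E-cadherin, was at 25.2 and 27.4 CPM at 0 h, 57.4 and 47.1 CPM at 24 h and 128 and 125 CPM at 72 h (1.27 ± 0.09 for the last step, adjusted p = 2.4e-12). Dsp, the desmosomal protein desmoplakin, was at 68.7 and 34.5 CPM and then at 265 and 259 CPM (2.34 ± 0.17, adjusted p = 5.2e-12). Ocln, occludin of tight junctions, was at 27.9 and 24.0 CPM and then at 66.1 and 64.8 CPM (1.33 ± 0.10, adjusted p = 7.8e-12). These rises are robust, as was that of Marveld2, tricellulin (1.15). Tjp1, the scaffold ZO-1, rose by 1.55, or by 2.24 without 24 h replicate 1, and lost the call with the covariate (-0.08, adjusted p = 0.94). The keratins Krt8 and Krt18 fell, from 902 and 1185 CPM to 410 and 412 CPM (-1.34) and from 485 and 636 CPM to 264 and 262 CPM (-1.09). Jup (-0.92), Cldn6 (-0.81), Esrp2 (-0.97) and Crb3 (-0.83) fell too, none of these 6 falls being robust.

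Contractile and matricellular genes were among the 10 largest falls that the naming rule selects. Tagln, the actin-binding protein transgelin, was at 67.0 and 68.4 CPM at 0 h, 133 and 166 CPM at 24 h and 2.85 and 3.33 CPM at 72 h. Both 72 h libraries lay far below the other 4, and the change from 24 h was -5.59 ± 0.15 (adjusted p = 2.0e-20). Acta2, smooth muscle actin, was at 11.6 and 12.4 CPM at 24 h and 0.254 and 0.235 CPM at 72 h (-5.58 ± 0.26, adjusted p = 7.6e-16). Myl9, a myosin light chain, was at 12.6 and 16.2 CPM and then at 1.73 and 1.22 CPM (-3.29 ± 0.15, adjusted p = 1.0e-15). Acta1, skeletal actin, was at 15.8 and 21.1 CPM and then at 0.965 and 0.704 CPM (-4.46 ± 0.22, adjusted p = 3.6e-15). In all 4 genes the fall was robust. Actin genes are alike in sequence, so reads may be shared between Acta1, Acta2, Actb and Actg1.

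The secreted matricellular proteins Ccn1 and Ccn2, textbook targets of YAP and TEAD, fell together. Ccn1 was at 381 and 384 CPM at 0 h, 573 and 638 CPM at 24 h and 64.6 and 68.8 CPM at 72 h (-3.18 ± 0.10 for the last step, adjusted p = 1.0e-18). Ccn2 was at 436 and 444 CPM, then 505 and 552 CPM, then 62.0 and 62.1 CPM (-3.09 ± 0.08, adjusted p = 1.7e-21). Both were below every other library at 72 h, and both falls were robust. Of the 20 mesenchymal and motile genes, 10 fell and 3 rose, against 35.0 and 35.3% over all genes, 8 and 2 of them robust. The falls held Vim, the intermediate filament protein vimentin (416 and 480 CPM, then 98.7 and 97.5 CPM, -2.19 ± 0.08, adjusted p = 8.4e-18), Cnn1 (-4.30) and Thbs1 (-2.73). The robust rises held Fn1, fibronectin (13.7 and 7.76 CPM, then 128 and 119 CPM, 3.52 ± 0.16, adjusted p = 9.6e-16). Snai1, a repressor of Cdh1, did not pass the test (132 and 168 CPM, then 130 and 134 CPM), and was called lower without 24 h replicate 1 (-0.36) and higher with the span trend or the axis removed (0.34 and 0.32).

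A list of 22 contractile and SRF target genes, and a list of 20 YAP and TEAD targets, were added after the values were seen. In the first, 15 fell and 2 rose, against 35.0 and 35.3% over all genes, and 11 of the falls were robust. Beside the genes above they include Actb (2401 and 2928 CPM, then 1016 and 1050 CPM, -1.37), Actg1 (-1.38), Flna (-1.17) and Srf itself, the factor that binds CArG boxes (128 and 149 CPM, then 44.6 and 49.1 CPM, -1.56). Cald1 (1.46) and Filip1l (2.39) rose, and the call of Cald1 was lost with the axis removed (-0.0016, adjusted p = 1.0). In the second list, 9 fell and 7 rose, against 35.0 and 35.3% over all genes, with 6 and 1 robust. Ajuba (-1.24), Tead4 (-1.04), Amotl2 (-0.57) and F3 (-0.64) fell beside Ccn1 and Ccn2, while Axl (1.66) rose. Ankrd1, another textbook target, was at 1.76 and 1.57 CPM and then 0.965 and 0.516 CPM (-1.18 ± 0.37, adjusted p = 0.0059), a call lost without 72 h replicate 2 (-0.79, adjusted p = 0.12). The YAP and TEAD list thus held both rises and falls, as did the genes tested as a whole.

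The proximal promoters of 3 of these falling genes are shown since known binding motifs of SRF and TEAD lie in them. They are the 250 bases before a RefSeq start on the gene's strand (GRCm38.p6). For Myl9 the start used lies inside the gene, whose annotated span begins at 156775408, so the window's last bases are within the gene. Motif letters are in capitals: the CArG box in Myl9 and Acta1, and CATTCC, the reverse complement of the TEAD motif GGAATG, in Ccn1.
Myl9, chr2:156775214-156775463, plus strand: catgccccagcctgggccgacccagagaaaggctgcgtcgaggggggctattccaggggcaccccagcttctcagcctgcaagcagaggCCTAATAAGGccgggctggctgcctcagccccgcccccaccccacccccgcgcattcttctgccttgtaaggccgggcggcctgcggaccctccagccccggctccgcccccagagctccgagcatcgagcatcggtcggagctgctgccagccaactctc
Acta1, chr8:123894776-123895025, minus strand: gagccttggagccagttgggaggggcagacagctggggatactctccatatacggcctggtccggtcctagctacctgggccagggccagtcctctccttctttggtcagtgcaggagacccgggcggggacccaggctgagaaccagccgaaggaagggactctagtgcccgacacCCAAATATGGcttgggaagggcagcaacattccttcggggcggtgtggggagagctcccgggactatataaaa
Ccn1, chr3:145649986-145650235, minus strand: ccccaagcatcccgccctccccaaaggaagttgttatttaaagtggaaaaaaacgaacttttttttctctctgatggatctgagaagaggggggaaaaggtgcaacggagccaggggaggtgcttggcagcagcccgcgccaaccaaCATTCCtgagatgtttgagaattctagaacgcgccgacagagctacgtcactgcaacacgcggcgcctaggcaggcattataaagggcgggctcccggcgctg
Searched on both strands, the CArG box was in such a window of 1.62% of 27025 genes and in 7 of the 19 listed contractile genes with a window. GGAATG was in 14.4% of genes and in 7 of 12 listed YAP and TEAD targets. The first bases of the matches lie 161 (Myl9), 73 (Acta1) and 103 (Ccn1) bases before the start used for each window. Capitals mark matches to the 1 motif named for each gene. A match describes letters, and binding was not analysed here.

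Parietal endoderm genes did not move as 1 group. Of 26 tested, 11 fell and 6 rose, against 35.0 and 35.3% over all genes, 6 and 2 of them robust. With the span trend removed 19 fell and 6 rose, and with the covariate 9 fell and 5 rose. Sparc, a collagen-binding matrix protein abundant in parietal endoderm, was at 9931 and 10230 CPM and then at 6292 and 6341 CPM (-0.67 ± 0.06, adjusted p = 2.9e-11), with the call lost under the covariate (-0.32, adjusted p = 0.062). Thbd, thrombomodulin, was at 578 and 576 CPM at 0 h, 349 and 330 CPM at 24 h and 153 and 163 CPM at 72 h (-1.10 ± 0.06, adjusted p = 2.5e-14), a robust fall. Plod2, which hydroxylates lysines of collagen, went the other way, from 238 and 177 CPM to 1621 and 1681 CPM (2.99 ± 0.14, adjusted p = 1.5e-15), and Fst, the activin antagonist follistatin, rose by 1.24. Both rises are robust.

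Basement membrane genes were also mixed, with 9 lower and 8 higher of 23, near the shares over all genes (35.0 and 35.3%). With the span trend removed 15 fell and 6 rose, and with the covariate 7 fell and 2 rose. The 3 chains of laminin-111 did not pass the test: Lama1 was at 12460 and 7701 CPM at 24 h and 9531 and 9763 CPM at 72 h (-0.06 ± 0.11, adjusted p = 0.64), and the values for Lamb1 and Lamc1 were 0.06 and 0.17. For Lama1 the 24 h library chosen decides the direction: it was called higher without replicate 1 (0.32, adjusted p = 0.0003) and lower without replicate 2 (-0.36, adjusted p = 6.8e-05). It was also called lower with the covariate (-0.80, adjusted p = 0.018) and with the span trend removed (-0.76, adjusted p = 1.1e-09). Lamb1 and Lamc1 were called higher without 24 h replicate 1 (0.23 and 0.50) and lower with the span trend removed (-0.58 and -0.53). At 0 h Lama1 had been at 18460 and 18560 CPM. The 24 h libraries enclosed the 72 h values of Lama1. Lama5, the chain of laminin in mature epithelial basement membrane, rose from 94.3 and 60.8 CPM to 274 and 263 CPM (1.79 ± 0.13, adjusted p = 4.8e-12). The integrin chains Itga3 (-1.06) and Itga5 (-1.09), the linker Nid2 (-0.41) and the collagen-modifying P4hb (-1.09) fell robustly, and Itga6 (1.00) and Itgb1 (0.68) rose in every leave-one-out fit, though Itgb1 was called lower with the axis removed (-0.29, adjusted p = 8.8e-09).

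**Figure D3:**
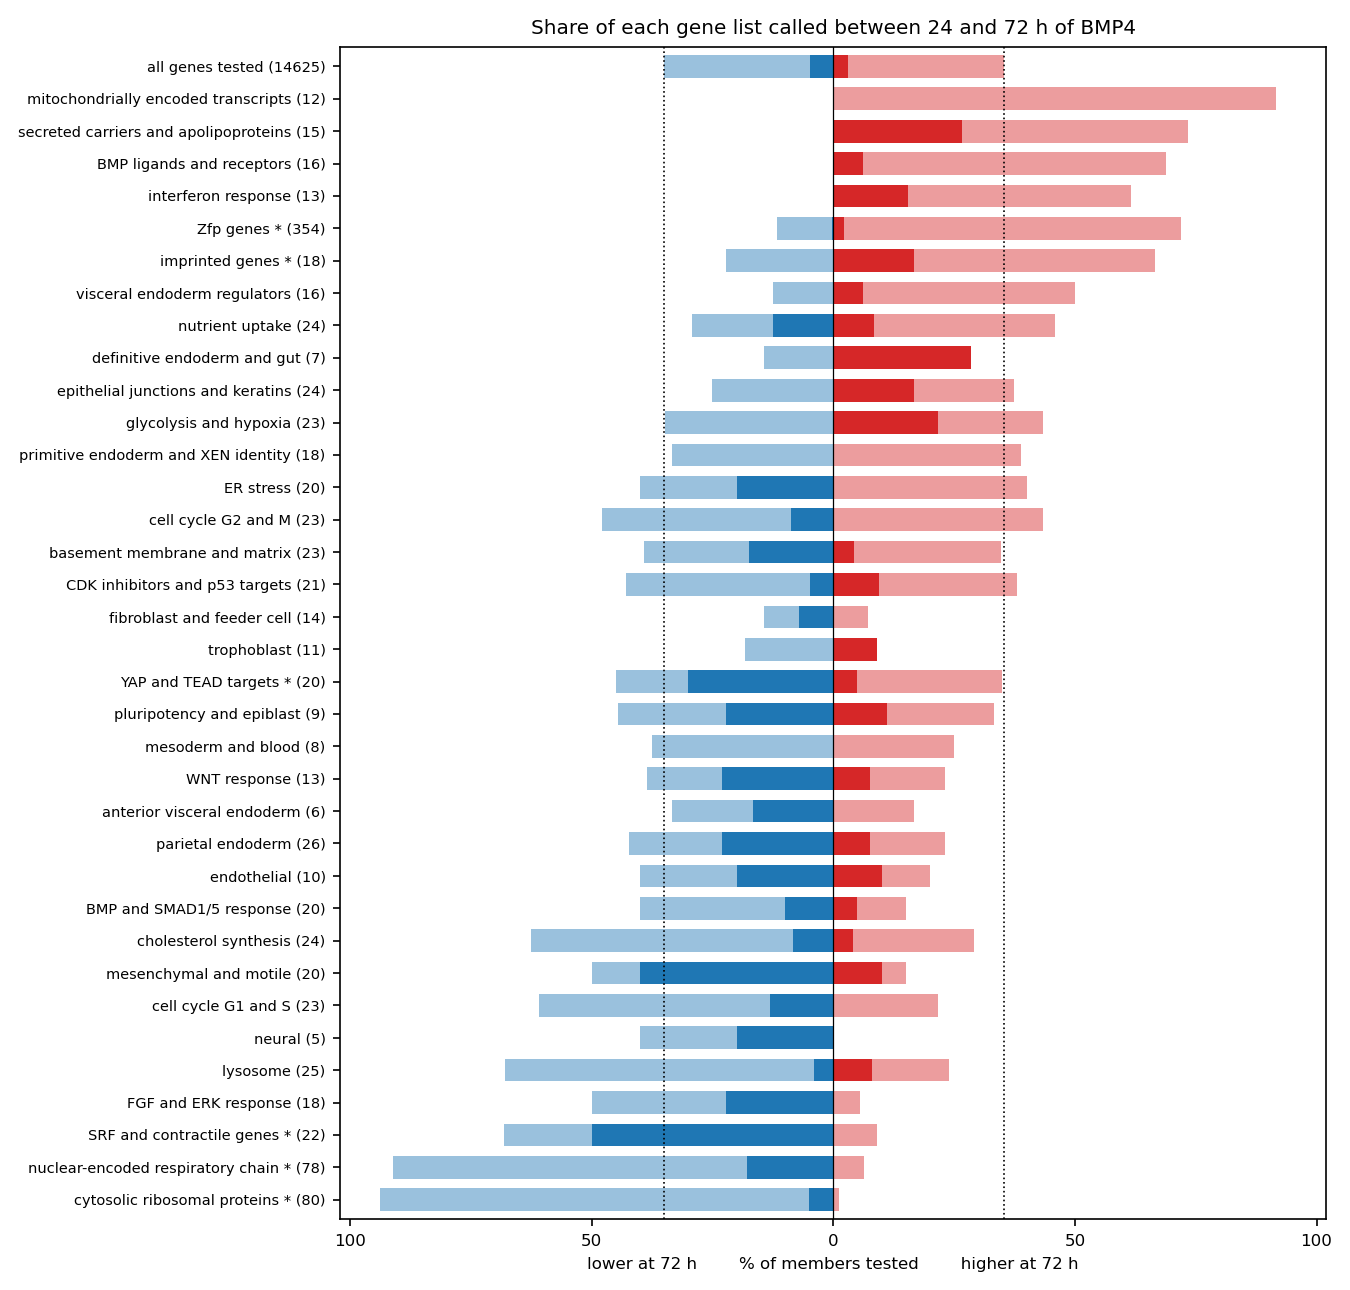
Bars give the share of tested members of each gene list (number in brackets) called higher (red, to the right) or lower (blue, to the left) at 72 h, and the dark parts are the robust members. Dotted lines mark 35.3 and 35.0%, the shares over all 14625 genes. An asterisk marks the 6 lists added after the values were seen. Carrier genes have 11 of 15 to the right and 0 to the left, and contractile genes 15 of 22 to the left.

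Several genes induced by low oxygen rose. Of 23 listed genes of glycolysis and hypoxia, 10 rose and 8 fell, near the shares of 35.3 and 35.0% over all genes. With the replicate axis removed 17 rose and 4 fell, and with the covariate 7 rose and 1 fell, so the balance of the list depends on the fit. Bnip3, a mitophagy receptor, was at 24.4 and 26.4 CPM at 24 h and at 141 and 164 CPM at 72 h (2.59 ± 0.15, adjusted p = 4.2e-14). Pdk1, which holds back pyruvate dehydrogenase, was at 5.42 and 4.51 CPM and then at 27.18 and 26.99 CPM (2.44 ± 0.16, adjusted p = 4.2e-13). Egln3, an oxygen-sensing prolyl hydroxylase, was at 7.22 and 8.34 CPM and then at 35.9 and 36.4 CPM (2.22 ± 0.17, adjusted p = 7.8e-12). These 3 rises, with those of Egln1 (1.12) and Ankrd37 (1.66), are the robust ones of the list. Vegfa rose by 1.11. Gapdh fell from 2002 and 2602 CPM to 1123 and 1149 CPM (-1.02), and Eno1 (-0.83) and Aldoa (-0.65) fell in every leave-one-out fit, though none robustly, and Aldoa was called higher with the axis removed (0.12, adjusted p = 0.044). Car9, an often-used hypoxia marker, stayed at 0.105 to 0.37 CPM in the 4 libraries.
The promoter of Bnip3 is shown since it holds the core of the hypoxia response element, ACGTG or GCGTG on either strand, 5 times (capitals, 2 of them overlapping in 1 palindrome).
Bnip3, chr7:138909507-138909756, minus strand: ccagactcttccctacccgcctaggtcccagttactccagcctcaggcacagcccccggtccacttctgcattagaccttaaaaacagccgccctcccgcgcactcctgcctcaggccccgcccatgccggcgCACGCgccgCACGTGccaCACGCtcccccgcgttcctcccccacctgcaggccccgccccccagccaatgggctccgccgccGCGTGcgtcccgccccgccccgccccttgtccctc
These letters are common in promoters. They were found in 41.5% of all genes with a window and in 20 of 21 listed genes, glycolytic enzymes included.

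Cell cycle genes moved in both directions, as did all genes tested (35.3% higher and 35.0% lower). Of 23 replication and G1 to S genes, 14 fell and 5 rose, 3 of the falls being robust: Mcm5, a helicase subunit (669 and 834 CPM, then 262 and 277 CPM, -1.48 ± 0.10, adjusted p = 1.0e-12), Cdc6 (-1.05) and Rrm2 (-0.66). Of 23 mitotic genes, 10 rose and 11 fell, but 3 rose and 16 fell with the replicate axis removed, and 0 rose and 2 fell with the covariate. Mki67, the proliferation antigen, was at 57.3 and 24.0 CPM and then at 472 and 459 CPM (3.51 ± 0.36, adjusted p = 1.5e-09, 4.28 without 24 h replicate 1). Cdc20, the activator of the anaphase-promoting complex, went from 270 and 330 CPM to 110 and 108 CPM (-1.46 ± 0.10, adjusted p = 7.3e-13). Mki67 and Cenpf (4.02) were not robust, and Cdc20 and Aurka (-1.21) were the robust mitotic genes. Cdkn1c, a CDK inhibitor, was at 13.2 and 14.8 CPM and then at 91.1 and 91.2 CPM (2.70 ± 0.17, adjusted p = 2.1e-13), and Trp53inp1, a p53 target, at 14.5 and 7.76 CPM and then 153 and 150 CPM (3.76 ± 0.28, adjusted p = 6.0e-12). Both rises are robust. Cdkn1a fell by 0.57 and was called higher with the axis removed (0.21, adjusted p = 0.00076).

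Genes of sterol synthesis were mostly lower in the full fit, 15 of 24 falling and 7 rising, against 35.0 and 35.3% over all genes. With the covariate 2 fell and 1 rose, and these are the robust members. Insig1, the sterol-sensing brake on the pathway, was at 211 and 164 CPM and then 701 and 752 CPM (1.95 ± 0.10, adjusted p = 2.9e-15), a robust rise. Hmgcs1, an early enzyme, rose by 1.28 in the full fit, a call lost with the covariate. Of 20 ER stress genes, 8 rose and 8 fell, near the shares over all genes (35.3 and 35.0%), and with the covariate 0 rose and 5 fell. The chaperone Calr, calreticulin, was at 4985 and 5643 CPM and then at 1893 and 1962 CPM (-1.46 ± 0.07, adjusted p = 9.8e-16), and Sdf2l1 (-1.83), Pdia4 (-0.64) and Atf3 (-1.25) also fell robustly. Dnajb9 rose by 1.29, and Canx and Dnajc3 by 0.66 and 0.97 with signs that turned under the covariate (-0.20, adjusted p = 0.5, and -0.25, adjusted p = 0.53).

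Genes that respond to FGF and ERK fell more often than they rose. Of 18 FGF and ERK response genes, 9 fell and 1 rose, against 35.0 and 35.3% over all genes, with 4 robust falls. Etv4, a factor induced by ERK, was at 4.17 and 4.46 CPM and then 0.66 and 0.563 CPM (-2.81 ± 0.26, adjusted p = 1.8e-10), and Dusp5 (-1.37), Phlda1 (-0.92) and Myc (-1.23) fell too. Its relative Etv5 was at 46.4 to 47.9 CPM. Of 13 WNT genes, 5 fell and 3 rose, near or under the shares over all genes (35.0 and 35.3%). Wnt7b, a ligand, was at 26.1 and 33.7 CPM and then 3.45 and 5.07 CPM (-2.80 ± 0.19, adjusted p = 1.5e-12), and Dkk1, a secreted WNT antagonist of anterior visceral endoderm, was at 6.99 and 7.29 CPM and then 1.42 and 1.78 CPM (-2.15 ± 0.17, adjusted p = 2.7e-11). Axin2, the common feedback gene, rose by 1.79. Both falls and the rise were robust. Of 13 interferon response genes, 8 rose and 0 fell, against 35.3 and 35.0% over all genes. Ddx58, the RNA sensor RIG-I, was at 0.879 and 0.629 CPM and then 6.04 and 5.12 CPM (2.86 ± 0.27, adjusted p = 2.6e-10), and Bst2 rose by 1.51, both robustly.

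Imprinted genes, a list of 18 tested and added after the values were seen, had 12 higher, 4 lower and a median of 2.63. Over all genes 35.3% were higher and 35.0% lower. H19, a noncoding RNA, was at 1.86 and 1.69 CPM at 0 h, 18.9 and 19.97 CPM at 24 h and 193 and 196 CPM at 72 h (3.32 ± 0.23, adjusted p = 1.9e-12). Peg10, a retrotransposon-derived gene, was at 534 and 305 CPM and then at 2441 and 2503 CPM (2.56 ± 0.15, adjusted p = 1.1e-13). H19, Peg10 and Cdkn1c are the robust rises. Igf2, the growth factor beside H19, was at 2.18 and 2.20 CPM and then at 28.9 and 27.6 CPM (3.69 ± 0.30, adjusted p = 2.1e-11). With the covariate the change of Igf2 was as large (3.68), with an adjusted p of 0.057. Peg3 rose by 2.80, or by 3.51 without 24 h replicate 1. Ndn (-1.62) and Snrpn (-0.97) fell in every leave-one-out fit.

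Beside Apob and Cldn2, the 10 largest rises by the naming rule were those of Atrx, Cep290, Ppp1r9a, Zfp945, Zfp292, Zfp820, Kcnq1ot1 and Trpc5os. Atrx, a chromatin remodeller, was at 21.1 and 21.4 CPM at 0 h, 8.70 and 3.67 CPM at 24 h and 155 and 157 CPM at 72 h (4.64 ± 0.42, adjusted p = 1.7e-10, 5.41 without 24 h replicate 1). Cep290 (5.29), Ppp1r9a (5.16), Zfp945 (5.06), Zfp292 (4.84), Zfp820 (4.74), Kcnq1ot1 (4.84) and Trpc5os (5.56) were at 0.105 to 5.60 CPM at 24 h and 11.2 to 120 CPM at 72 h. Each of these 8 was lower in 24 h replicate 2 than in replicate 1. Ppp1r9a and Trpc5os were robust, and the other 6 lost the call under the covariate, with Zfp945 turning in sign (-0.065). Kcnq1ot1 and Trpc5os are antisense genes, whose reads cannot be told from those of their partners where counting does not use strand. Without 24 h replicate 1 the changes of Cep290, Ppp1r9a and Zfp820 were 7.37, 7.09 and 6.34. Malat1, a nuclear noncoding RNA, and Selenop, a secreted selenium carrier, were singled out after their values were seen. Malat1 was at 31.9 and 15.6 CPM and then at 543 and 560 CPM (4.53 ± 0.34, adjusted p = 5.8e-12, 5.14 without 24 h replicate 1), and Selenop at 1.25 and 1.63 CPM and then at 32.5 and 33.8 CPM (4.53 ± 0.22, adjusted p = 2.0e-15). The 10 largest falls were Tagln, Acta2, Acta1, Aif1l (-4.39), Tmem163 (-4.36), Coro2b (-3.78), Myl9, Ccn1, Ccn2 and Birc7 (-2.95), and all 10 were robust. The change of Tmem163 was -3.72 or -5.67 without 1 or the other 72 h library. By difference in mean CPM, the 5 largest rises were mt-Co1, Peg10, mt-Cytb (2.10), Plod2 and mt-Nd5 (1.93), and the 5 largest falls Sparc, Calr, Eef2 (-0.83), a translation factor, Serpinh1 (-0.77), a collagen chaperone, and P4hb.

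Change over the step moved with gene span, the distance from start to end of a gene in the annotation. With 11197 genes put into 5 equal groups by span, the group of the shortest (0.275 to 7.76 kb) had a median change of -0.82, with 13.4% higher and 70.1% lower. In the group of the longest (64.1 to 1998 kb) it was 0.65, with 64.2% higher and 18.2% lower. The difference between both 24 h libraries (replicate 1 minus 2) moved with span as well, from -0.30 in the group of the shortest to 0.37 in that of the longest, while that of the 72 h libraries stayed within -0.01 and 0.00. Across genes, the step had a Spearman correlation of 0.445 with span. It had one of -0.709 with the difference between both libraries of Sox17 degradation at 24 h (11339 genes), which share no library with the step. These are descriptions over genes, which are not independent replicates, and the part of such a trend in the step was not tested.

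**Figure D4:**
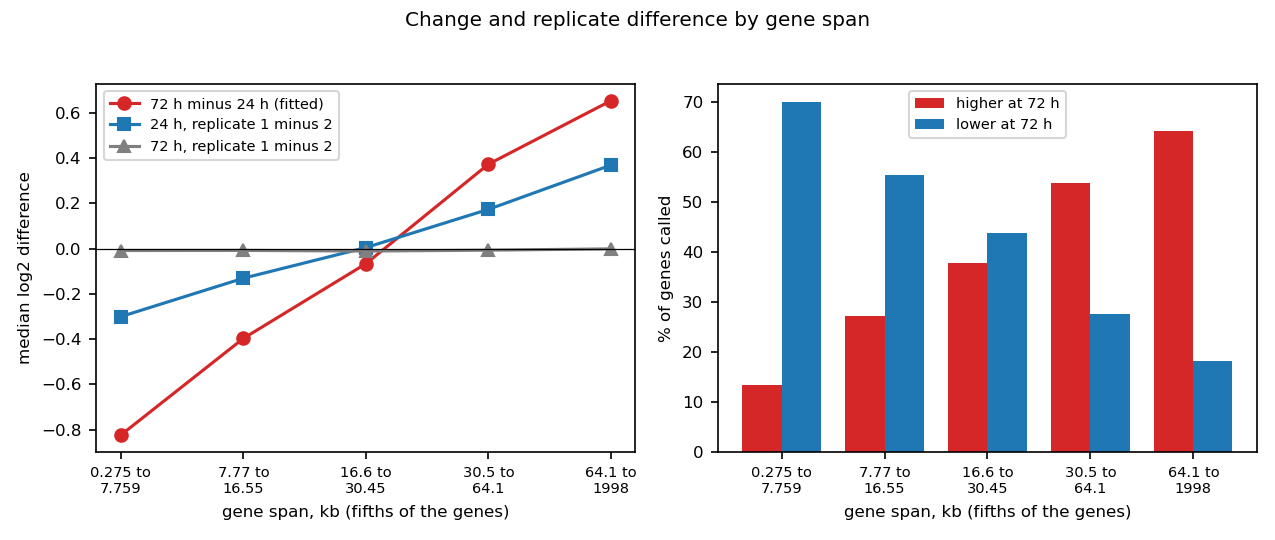
The x axes give 5 equal groups of 11197 genes, ordered by span in kb. Left, median log2 differences: the step (red) runs from -0.82 to 0.65 and the 24 h replicate difference (blue) from -0.30 to 0.37, and the 72 h replicate difference (grey) stays near 0. Right, the share of genes called higher (red) goes up from 13.4 to 64.2% and that called lower (blue) down from 70.1 to 18.2%.

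Ribosomal, respiratory chain and zinc-finger genes were examined beside this trend, and these 3 lists were added after the values were seen. The shares over all genes were 35.3% higher and 35.0% lower. Of 80 cytosolic ribosomal protein genes, 75 fell and 1 rose, with a median of -1.11 and a summed level of 55870 to 79200 CPM at 24 h and 31200 to 31540 CPM at 72 h. Of these falls 4 were robust, and counts of these genes are uncertain because of near-identical pseudogenes. Rps2, 1 of the 4, was at 2120 and 3256 CPM and then 683 and 685 CPM (-1.97). Of 78 nuclear-encoded subunits of the respiratory chain, 71 fell and 5 rose, 14 of the falls being robust. Mitochondrially encoded transcripts went the other way, with 11 of 12 higher and none of them robust. Of these, mt-Co1 was at 2820 and 2450 CPM and then at 6546 and 6284 CPM (1.28 ± 0.11, adjusted p = 1.1e-10), and 0.27 with the covariate (adjusted p = 0.4). Of 354 Zfp genes, which encode zinc-finger proteins, 255 rose and 41 fell, with 8 and 1 robust.

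Markers of other cell types differed in level from list to list. Their counts of calls are to be read against 35.3% higher and 35.0% lower over all genes. The fibroblast genes Col3a1, Postn, Prrx1 and Dpt were at 0 in the 6 libraries, Col1a1 reached at most 0.157 CPM, and the list of 16 summed to 35.2 to 54.8 CPM at 24 h and 23.4 to 26.6 CPM at 72 h. Of 14 fibroblast genes tested, 1 rose and 2 fell. Fbn1, the microfibril protein fibrillin, made up most of the sum at 24 h, with 40.1 and 21.5 CPM, and fell robustly to 13.8 and 10.8 CPM (-1.33, adjusted p = 3.3e-08). The part of such cells in the step was not tested. Of 9 pluripotency genes, 3 rose and 4 fell, with Pou5f1 at 1.67 to 3.15 CPM. The pluripotency list summed to 409 to 434 CPM at 24 h and 500 to 526 CPM at 72 h. Of 11 trophoblast genes 1 rose, Peg10, and 2 fell, and Hand1 was at 0. The trophoblast list summed to 489 to 716.5 CPM at 24 h and 2610 to 2674 CPM at 72 h. Peg10 made up most of the sum at 72 h (2441 and 2503 CPM). Of 8 mesoderm and blood genes 2 rose and 3 fell, with sums of 19.2 to 27.04 CPM, and of 5 neural genes 0 rose and 2 fell. Of 10 endothelial genes, 2 rose and 4 fell, and the list summed to 494 to 517 CPM at 24 h and 347 to 353 CPM at 72 h. Cdh5, VE-cadherin, which XEN cells express, was at 388 and 327 CPM and then 169 and 166 CPM (-1.09 ± 0.07, adjusted p = 1.9e-13), and Flt1, a VEGF receptor, was at 20.3 and 13.5 CPM and then 125 and 129 CPM (2.91 ± 0.13, adjusted p = 3.4e-16), both robust. Pecam1 stayed under 0.5 CPM. Of 7 definitive endoderm and gut genes, the gastrokines Gkn1 (1.11) and Gkn2 (1.07) rose robustly, and Sox17 fell. That list summed to 515 to 606 CPM at 24 h and 534 to 537.5 CPM at 72 h. Of 6 genes of anterior visceral endoderm, 1 rose and 2 fell, Dkk1 and Hhex (-1.01).

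Set beside the first 24 h, the step had more calls: 6371 genes (43.6%) were called between 0 and 24 h, 3117 higher and 3254 lower. Both comparisons share the 24 h libraries, and without 24 h replicate 2 the count for the first 24 h was 2240. Hnf4a changed by 1.46 in the first 24 h and by 0.04 in the step, and Ttr by 1.61 and -0.18. For Id1 the values were 4.57 and -1.01, for Smad6 6.58 and 0.25, for Apoa1 1.85 and 2.62, for Cdh1 0.99 and 1.27 and for Tagln 1.14 and -5.59. The carriers Apoa1, Rbp4 and Afp were thus higher at 24 than at 0 h and higher again at 72 h, Hnf4a and Ttr were higher at 24 than at 0 h, with overlapping 24 and 72 h groups, and Tagln was above its 0 h level at 24 h and below it at 72 h.

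The same hours of Sox17 degradation served to test where the BMP4 step differs. In that step 3430 genes (23.5%) were called, and the difference between both steps was called in 8286 genes (56.7%), 4032 with the BMP4 step higher (27.6%) and 4254 with it lower (29.1%). Medium, serum, line and agent differ between these steps at once, and the 24 h pair of Sox17 degradation had the second widest spread of the 20 groups (38.9). With the covariate, 1279 differences were called, 603 higher and 676 lower. Rbp4 rose in both steps (1.71 and 1.46), and the difference did not pass the test (0.25, adjusted p = 0.11). Apoa1 rose by 2.62 and 1.82, with a difference of 0.81 (adjusted p = 0.00031), and Afp by 3.66 and 0.85, with a difference of 2.81 (adjusted p = 6.9e-12).

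Some genes moved in opposite directions in the 2 steps, and others moved alike but by unlike amounts. Acta2 was at 912 and 775 CPM at 24 h of Sox17 degradation and 510 and 516 CPM at 72 h, a change of -0.72 against -5.58 with BMP4. Flt1 went from 6.05 and 6.65 CPM to 2.28 and 1.70 CPM there (-1.66) and rose with BMP4 (2.91), as did Pdzk1 (-1.49 and 2.46). Dpp4 changed by -1.39 there and 2.16 with BMP4 (difference 3.55, adjusted p = 9.9e-11). Cdh1 rose in both (0.74 and 1.27, difference 0.53, adjusted p = 0.00093). Egln3 rose by 2.97 there and by 2.22 with BMP4, a difference of -0.75 (adjusted p = 0.012), whereas Bnip3 rose by 0.83 and 2.59. Apob, Flt1, Cep290, Kcnq1ot1 and Pdzk1 were among the 6 most positive differences. The 6 most negative were those of Bok, an apoptosis regulator of the BCL2 family, Slc24a3, Acta2, Ramp1, Coro2b and Acta1. With BMP4, Slc24a3 had 2 and 4 reads at 24 h and 0 and 0 at 72 h. Ramp1 had 3 and 5 reads, then 0 and 1. Neither gene kept its call of the BMP4 step in every leave-one-out fit, so the BMP4 part of both differences rests on a few reads. The difference of Apob (6.37 ± 1.45) is limited too. Apob had 6 and 1 reads at 24 h of BMP4 and lay at 0.0911 to 0.285 CPM in the libraries of Sox17 degradation.

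**Figure D5:**
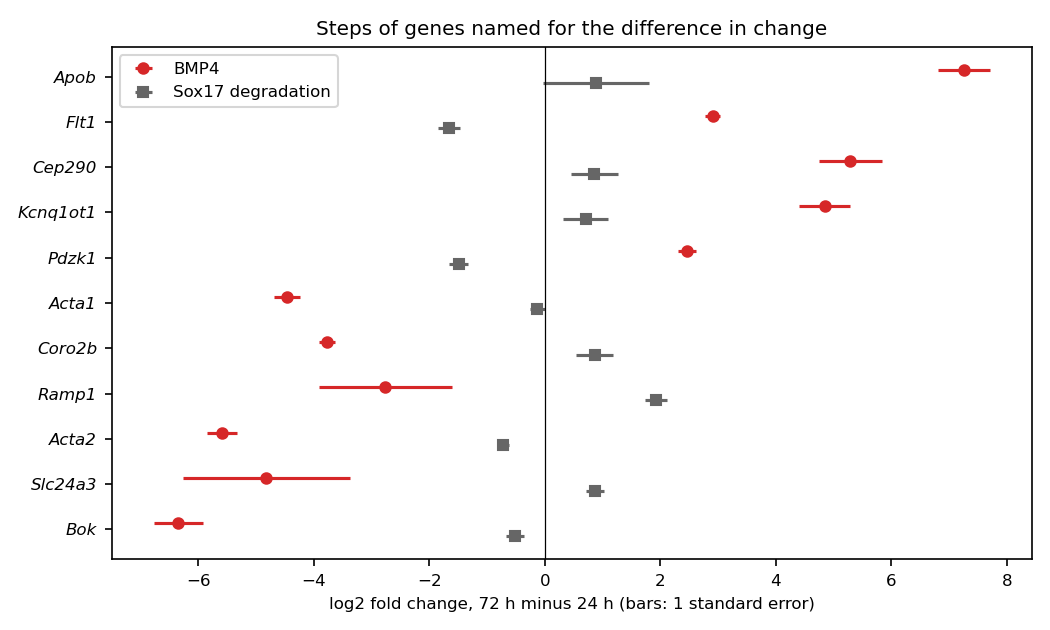
Log2 fold changes from 24 to 72 h, with bars of 1 standard error, for 11 of the 12 genes with the most positive and most negative difference between the BMP4 step (red circles) and the step of Sox17 degradation (grey squares). Apob is at 7.26 and 0.89, Flt1 at 2.91 and -1.66, and Acta2 at -5.58 and -0.72.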

How the data were processed

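RNA from cXEN cells was extracted with trizol and sequenced, per the labels. The submitters' processing notes name HISAT2, HTSeq and mm10, and the deposited files hold whole-number read counts per gene and library. Versions, annotation release and strand setting were not given in the sources used here. Rows that name no gene were left out of totals and tests, and the row of reads outside genes is reported as such. Counts were fitted with edgeR 4.0.16 (R 4.3.3, limma 3.58.1): TMM scaling, filterByExpr, a mean for each of 20 groups of 2, quasi-likelihood F tests with 20 residual degrees of freedom, and Benjamini-Hochberg adjustment over 14625 genes. The biological coefficient of variation was 8.22%. CPM values were computed from the counts with TMM factors, and SE is the log2 fold change divided by the square root of F. DESeq2 1.42.0 served as an alternative. The script was tested on simulated data. Counting error alone is small at these depths, except for genes of a few reads.

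Genes named by rule are 11 regulators, the 10 largest rises and falls of at least 5 CPM with separate groups and calls kept in the leave-one-out fits, the 5 largest in CPM each way, 3 leading members of each list, and the 6 most positive and negative differences between steps. Other list members were named after their values were seen. The members and the 29 lists were chosen with earlier results of these data known, and 6 lists and 3 fits were added later. Replicate numbers are not stated to pair libraries. Over 11339 genes the replicate differences at 24 and 72 h had a Spearman correlation of 0.0313. This cannot decide whether libraries were paired, since the 72 h libraries differed little beyond counting error (chi-square per degree of freedom 1.59). Promoters are from RefSeq, matched by symbol. The chromatin samples were not analysed here. A few genes that the rule selects are not reported here.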

Additional observations from a re-analysis of the deposited data

Results flagged for a closer look

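Reads outside annotated genes are not part of the comparisons above. They numbered 10.4 and 10.3 per 100 gene reads in the 72 h libraries, above the 5.64 and 5.68 of the 0 h controls, and their part in the step was not tested beyond the fit with a covariate.

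The step from 24 to 72 h differed between BMP4 and Sox17 degradation in 8286 genes by edgeR's test of the difference itself. Among the genes named for it, the log2 difference was 6.37 for Apob, 4.57 for Flt1, 4.43 for Cep290, 4.13 for Kcnq1ot1 and 3.94 for Pdzk1. It was -5.83 for Bok, -5.69 for Slc24a3, -4.87 for Acta2, -4.69 for Ramp1, -4.64 for Coro2b and -4.33 for Acta1. Slc24a3 and Ramp1 had 5 reads or fewer in each library of the BMP4 step, and Apob had 6 and 1 reads at 24 h. Line, medium, serum and agent differ between the steps and cannot be told apart.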

How the results depend on the processing

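Counts of calls in the step stayed within 1.5 times of 10275 under median-of-ratios scaling, no filter, DESeq2, fewer libraries in the fit, the span trend removed and the replicate axis removed, and ranged from 9288 to 10113 when 1 library was left out. With reads outside genes as a covariate, which itself separates 24 from 72 h and so shares the step by construction, 1525 genes were called (707 higher, 818 lower), and 1279 for the difference between steps (603 higher, 676 lower). Leaving out 1 library gave 7077 to 8598 for that difference (3391 to 4254 higher, 3685 to 4457 lower), 4629 to 5109 higher and 4659 to 5004 lower for the step, and 2240 to 7272 for the first 24 h. With the replicate number as a block, 10244 genes were called (5138 higher, 5106 lower), and 8248 for the difference.

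Signs turned for a few genes named by rule, given here, and for others given above, such as Lama1. The cause was not tested. With the covariate the log2 changes were -0.20 for Canx, -0.25 for Dnajc3, 0.40 for Esx1, 0.46 for Foxa2, 0.49 for Hba-x, 0.064 for Id1, 0.55 for Id3, 1.01 for Nkx2-5, 0.71 for Phlda2, -0.27 for Rora, -0.31 for Sox7 and -0.065 for Zfp945. With the replicate axis removed they were -0.41 for Canx, -0.10 for Dnajc3, 0.18 for Foxa2, 0.28 for Gata4, 0.23 for Sesn2, -1.12 for Smad6 and -0.051 for mt-Nd1. With the span trend removed they were 0.45 for Foxa2, -0.61 for Hnf4a, 0.21 for Phlda2, -0.44 for Smad6 and 0.0036 for Sox17. Without 24 h replicate 2 they were 0.0092 for Foxa2 and -0.029 for Hnf4a. Some of these are calls gained: Foxa2 was called higher in the 3 added fits, and Hnf4a lower or higher by fit. Leaving out 1 library at a time, Foxa2 ranged from -0.19 to 0.0092 and Hnf4a from -0.029 to 0.13. With 2 libraries a group, genes of a few reads, such as Apob at 24 h, are limited by depth.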
